A study of Homo sapiens with 14 samples.

Results

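The genes of 2 human cancer cell lines were compared in how they answered the same inhibitor. The lines were A549, from a lung cancer, and SUM159, from a triple-negative breast cancer, and the inhibitor was PF-06873600, which is described to block CDK2, CDK4 and CDK6. For each gene, the log2 fold change of treated over untreated cells in A549 was subtracted from that in SUM159. This value is called the line difference. It is positive where the gene rose more, or fell less, in SUM159. Of the 14 RNA-seq libraries of the series, 8 were compared, with 2 in each of 4 groups. These groups were untreated A549, A549 given 0.5 μM PF-06873600 for 7 days, untreated SUM159, and SUM159 given the same dose for 7 days. When untreated cells were harvested is not given in the sources used here. The labels give each line by name only, with no genotype or engineered allele.

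The series text calls the 2 libraries of a group technical duplicates, so every error and p-value below measures only the spread between such libraries. With 2 libraries against 2, the smallest two-sided p of an exact permutation test is 0.33, and the calls come from edgeR's quasi-likelihood F test, which shares information across genes. A549 was bought and kept in RPMI with L-glutamine, and SUM159 was a gift and kept in DMEM/F12 with insulin and hydrocortisone. Line and medium therefore cannot be told apart. Libraries held 14712412 and 15000694 counts on genes in untreated A549, 13060374 and 16173663 in treated A549, 16582253 and 15967162 in untreated SUM159, and 17106664 and 21149256 in treated SUM159. Levels are given in CPM, a gene's count scaled to the total count on genes of its library. In every group the 2 libraries differed by more than sampling noise.

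The labels were checked against marker genes. The 16 markers of an epithelial lung line, led by AKR1B10, summed to 2.66e+04 and 2.57e+04 CPM in untreated A549 and to 1.28e+03 and 1.21e+03 CPM in untreated SUM159. The 14 markers of a claudin-low breast line, led by VIM, summed to 1.8e+03 and 1.79e+03 CPM in untreated A549 and to 7.92e+03 and 7.39e+03 CPM in untreated SUM159. Each line was therefore higher for its own list. CDKN2A, which is on the SUM159 list, had 3, 1, 0 and 1 counts in the 4 SUM159 libraries and 0 in the 4 A549 libraries. Of 10 immune markers, CD3E and MS4A1 were at 0 in all 8 libraries, and PTPRC was the most abundant. The immune list summed to 7.75 and 7.2 CPM in untreated and 12.9 and 12.6 CPM in treated A549, and to 11.5 and 12.3 CPM in untreated and 26.2 and 24 CPM in treated SUM159. The 8 endothelial markers, led by PECAM1, summed to at most 1.87 CPM in A549, and in SUM159 to 25.1 and 25.4 CPM without and 45 and 46.4 CPM with treatment. Both sums were thus higher in treated SUM159. The 8 fibroblast markers, led by COL1A1, summed to at most 12.4 CPM in A549. In SUM159 they summed to 1.83e+03 and 1.92e+03 CPM without treatment and to 4.74e+03 and 4.92e+03 CPM with it, and all 8 rose there. Whether cells other than the line took part in this was not tested.

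CDK4 and CDK6, with D cyclins, and CDK2, with E and A cyclins, phosphorylate the retinoblastoma protein RB. Phosphorylated RB releases E2F factors, which switch on genes for DNA replication, and genes for mitosis follow later in the cycle. Cells whose CDKs stay blocked can leave the cycle for good, a state called senescence, in which they typically secrete chemokines, interleukins and matrix proteins and enlarge their lysosomes. The study asked whether inhibition of CDK2 together with CDK4 and CDK6 brings cells of several cancer types into this state. The 2 lines are set side by side here for genes that moved alike, in 1 line only, or in opposite directions.

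In both lines a large share of genes moved, and the size or direction of the response often differed between the lines. Of 16707 genes tested, 4424 (26.5%) rose and 4270 (25.6%) fell in A549, and 5770 (34.5%) rose and 5111 (30.6%) fell in SUM159. The line difference was called for 4269 genes (25.6%) as higher in SUM159 and for 4543 (27.2%) as lower. Both lines called 6057 genes, which is 69.7% of the calls of A549 and 55.7% of those of SUM159, and 56.6% of these moved in the same direction. Over the 16707 genes, the response in A549 and that in SUM159 had a Pearson r of 0.17 and a Spearman rho of 0.12. This describes genes measured in the same 8 libraries, which are not independent replicates. The 2 contrasts share no library. The median log2 fold change over all genes tested was 0.00 in A549 and 0.05 in SUM159.

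Genes were sorted into classes by the 3 tests of the same fit at an adjusted p under 0.05. Shared rises numbered 1903 (11.4%) and shared falls 1525 (9.13%). Among shared rises the line difference was not called for 996, SUM159 moved more for 505 and A549 for 402. Among shared falls these numbers were 931, 424 and 170. Genes called in A549, not called in SUM159 and called for the line difference comprised 726 rises (4.35%) and 805 falls (4.82%). The same for SUM159 comprised 1438 rises (8.61%) and 1596 falls (9.55%). Opposite movement was found for 2629 genes. Of these, 1280 (7.66%) rose in SUM159 and fell in A549, and 1349 (8.07%) rose in A549 and fell in SUM159. A minority of single-line genes had a mean under 1 CPM in both groups of the other line. These were 46 of the 726 rises (6.34%) and 146 of the 805 falls (18.1%) of A549 only, and 229 of the 1438 rises (15.9%) and 47 of the 1596 falls (2.94%) of SUM159 only.

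**Figure D1:**
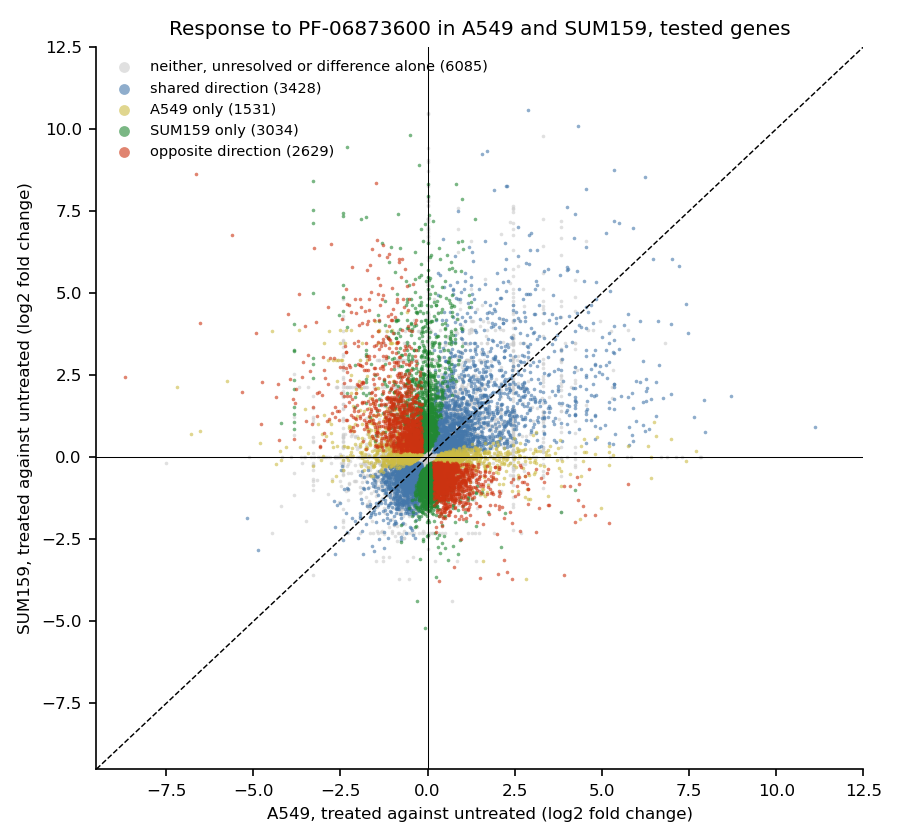
Log2 fold change of treated over untreated libraries in A549 (horizontal axis) and SUM159 (vertical axis) for 16707 tested genes, coloured by class, with the number of genes in brackets and equal responses on the dashed line. The 2629 genes of opposite direction fill the upper left and lower right quadrants, and points lined up in columns or rows are genes with few counts in a group.

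With a limit on size as well, at least 1 on the log2 scale in each line that moved and under 0.5 in the other, the classes became less even. Shared rises of this size numbered 711 and shared falls 72. There were 239 rises and 176 falls in A549 only, and 624 rises and 330 falls in SUM159 only. Opposite movement of at least 1 in each line was found for 281 genes higher in SUM159 and 76 higher in A549. Among 8849 genes with at least 10 CPM in the higher group of each line, a condition chosen after the values were seen, several of these balances changed. The opposite counts of 281 and 76 became 38 and 36, those of SUM159 only became 205 rises and 212 falls, those of A549 only 90 rises and 55 falls, and the shared counts 165 rises and 33 falls. Without the limit on size, SUM159 had 2647 rises and 4107 falls there and shared falls, at 1324, outnumbered shared rises, at 1054, whereas rises were the more numerous over all genes tested. In that better covered set, 1930 genes (21.8%) moved in opposite directions, and 1186 of them rose in A549 and fell in SUM159.

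Gene lists by function were then counted against these shares of all genes tested, without a test of the lists as such. Lower line differences made up the largest shares of the DNA replication, recombination repair and mitosis lists, followed by the YAP and TEAD, lamin and chromatin, and CDK, cyclin and RB lists. Higher ones made up the largest shares of the lysosome, ATF4, NF-kB and HLA class I lists.

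**Figure D2:**
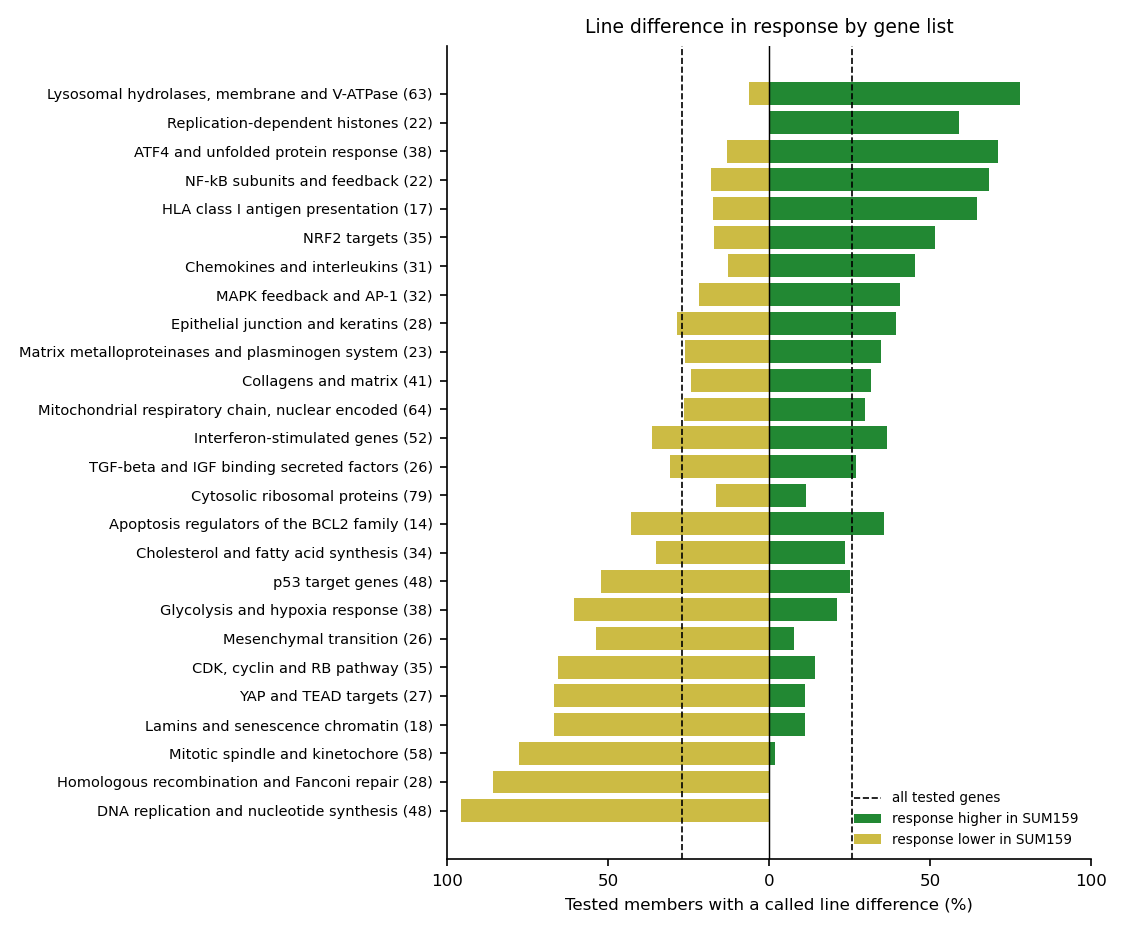
Percentage of the tested members of 26 gene lists with a called line difference, higher in SUM159 to the right and lower to the left, with the number of tested members in brackets. Dashed lines mark all tested genes, 25.6% higher and 27.2% lower; DNA replication reached 95.8% lower, and the lysosome list 77.8% higher.

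Genes of DNA replication and nucleotide synthesis moved in opposite directions. Of 48 genes on the list, 41 rose in A549 and 45 fell in SUM159. Of the 48, 46 had a lower and 0 a higher line difference. As many as 38 genes rose in A549 and fell in SUM159, against 8.07% of all genes tested. Their fold changes ran from -0.49 to 1.88 on the log2 scale in A549, with a median of 0.78, and from -1.98 to 0.41 in SUM159, with a median of -0.98. The list included the MCM helicase subunits MCM2 to MCM6, the clamp PCNA, both ribonucleotide reductase subunits RRM1 and RRM2, and the chromatin assembly subunits CHAF1A and CHAF1B, all of them in this opposite class. In bulk libraries, fewer cells that express a gene and less of its RNA per cell cannot be told apart.

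The mean of log2(CPM + 0.5) over the 48 replication genes was 4.75 and 4.77 in untreated A549 and 5.47 and 5.46 in treated A549. It was 6.65 and 6.61 in untreated SUM159 and 5.70 and 5.71 in treated SUM159. The lines thus differed most without treatment, SUM159 being the higher, and lay closer together with it.

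UHRF1 (ENSG00000276043, chr19:4903080-4962154, plus strand, hg38), which brings the maintenance DNA methyltransferase to new DNA, had the lowest line difference of the list. It had 12.3 and 10.4 CPM in untreated A549 and 32.5 and 28.1 CPM in treated A549. In SUM159 it had 148 and 140 CPM without treatment and 34.1 and 38.8 CPM with it. The rise in A549 was 1.41 ± 0.12 (SE, log2) and the change in SUM159 -1.98 ± 0.09, a line difference of -3.39 ± 0.14 (edgeR adjusted p = 3.46e-10). CLSPN (chr1:35720218-35769978, minus strand) encodes claspin, which activates the replication checkpoint at stalled forks. It had 7.41 and 8.53 CPM in untreated and 28.9 and 27.8 CPM in treated A549, and 105 and 110 CPM in untreated and 50.4 and 50.9 CPM in treated SUM159. Its line difference was -2.91 ± 0.12 (edgeR adjusted p = 3.25e-10). For both genes the treated and untreated libraries did not overlap in either line, and the 2 genes stayed in the opposite class in all 15 settings tried.

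Of the replication genes, 3 shared a direction. PRIM2, the large primase subunit, rose by 1.04 ± 0.16 in A549 and 0.41 ± 0.11 in SUM159, with a line difference of -0.63 ± 0.19 that lost its call without library 1 of untreated A549 (-0.41) and without library 1 of treated A549 (-0.55). RPA3, a subunit of the single-strand binding protein, changed by -0.49 in A549 and -0.32 in SUM159. TK1, the thymidine kinase of the salvage pathway, changed by -0.38 and -0.57. The line difference was not called for RPA3 or TK1.

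Promoter windows of 300 bases, 250 before to 50 after the gene start of RefSeq on GRCh38.p14, are shown for UHRF1 and CLSPN as the replication genes with the lowest line difference, a choice made after the values were seen, and for TK1 as a replication gene that fell in both lines. Capitals mark matches on either strand to TTTNNCGC, letters of an E2F-like motif, and to GGNNTTTCC, letters of an NF-kB-like motif. The windows are chr19:4909251-4909550, plus strand, chr1:35769929-35770228, minus strand, and chr17:78187155-78187454, minus strand.
UHRF1: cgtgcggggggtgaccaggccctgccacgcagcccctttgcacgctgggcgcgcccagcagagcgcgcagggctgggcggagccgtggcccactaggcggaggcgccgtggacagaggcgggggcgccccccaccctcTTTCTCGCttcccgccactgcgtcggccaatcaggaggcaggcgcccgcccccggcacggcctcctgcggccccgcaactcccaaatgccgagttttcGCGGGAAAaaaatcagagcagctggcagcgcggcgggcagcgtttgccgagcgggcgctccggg
CLSPN: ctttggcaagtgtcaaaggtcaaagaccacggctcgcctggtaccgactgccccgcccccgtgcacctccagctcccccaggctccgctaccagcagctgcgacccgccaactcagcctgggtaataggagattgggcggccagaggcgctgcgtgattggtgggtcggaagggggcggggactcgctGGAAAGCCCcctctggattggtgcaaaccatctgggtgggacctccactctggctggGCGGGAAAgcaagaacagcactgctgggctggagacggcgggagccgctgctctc
TK1: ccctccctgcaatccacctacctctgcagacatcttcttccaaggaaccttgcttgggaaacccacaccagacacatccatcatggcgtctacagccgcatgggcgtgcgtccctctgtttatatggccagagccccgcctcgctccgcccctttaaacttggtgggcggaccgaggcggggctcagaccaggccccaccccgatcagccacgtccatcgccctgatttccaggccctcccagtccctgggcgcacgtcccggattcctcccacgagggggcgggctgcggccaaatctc
UHRF1 held 2 matches to the E2F-like letters, CLSPN 1 match to each motif and TK1 none. The E2F-like letters occurred in 22 of 41 replication promoters in the table (53.7%), in 8 of 51 mitotic promoters (15.7%) and in 1884 of all 27305 promoters (6.9%). A match is a description of letters and not a site of binding.

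Genes of homologous recombination and the Fanconi pathway, which mend broken and stalled forks, followed the replication genes. Of 28 tested, 15 rose in A549 and 27 fell in SUM159, and 14 did both. A lower line difference was called for 24 and a higher one for 0. XRCC2, a recombination protein, had 9.24 and 8.33 CPM in untreated and 21.1 and 20.8 CPM in treated A549. It had 42.3 and 47.5 CPM in untreated and 24.3 and 22.8 CPM in treated SUM159, and its line difference was -2.18 ± 0.15 (edgeR adjusted p = 1.94e-08). EXO1, an exonuclease that resects ends, changed by 0.99 ± 0.11 in A549 and -0.93 ± 0.09 in SUM159. BRCA1 was of the same kind, with 0.71 and -0.87. FANCC, FANCE and FANCF, subunits of the Fanconi core complex, fell in both lines instead.

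Genes of the mitotic spindle and kinetochore fell in both lines, and most of them fell further in SUM159. All 58 tested fell in SUM159, and 41 fell in A549 and 7 rose there. Among the 41 shared falls (9.13% of all genes tested were shared falls), the line difference was lower for 28, higher for 1 and not called for 12. The medians were -0.55 in A549 and -1.32 in SUM159. The mean of log2(CPM + 0.5) over the list went from 4.86 and 4.96 to 4.35 and 4.39 in A549, and from 6.67 and 6.68 to 5.38 and 5.37 in SUM159.

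CDC20 (chr1:43358981-43363203, plus strand), the activator of the anaphase-promoting complex, had 30.4 and 30.5 CPM in untreated and 22.3 and 23.2 CPM in treated A549. It had 365 and 345 CPM in untreated and 64.5 and 71.8 CPM in treated SUM159, a line difference of -1.96 ± 0.11 (edgeR adjusted p = 4.22e-09). KIF20A (chr5:138178719-138187723, plus strand), a kinesin of the cleavage furrow, fell alike in both. It had 42.0 and 49.3 CPM in untreated and 7.27 and 7.05 CPM in treated A549, and 165 and 159 CPM in untreated and 21.8 and 20.5 CPM in treated SUM159. Its changes were -2.67 ± 0.11 and -2.94 ± 0.08, and the line difference of -0.27 ± 0.15 was not called (edgeR adjusted p = 0.141), although it was called at -0.39 without library 2 of untreated A549. KIF2C, a kinesin that depolymerises microtubules, was the 1 shared fall called as deeper in A549, at -1.49 ± 0.10 against -1.03 ± 0.07. MKI67, the proliferation marker Ki-67, changed by -0.97 ± 0.12 in A549 and -2.03 ± 0.11 in SUM159.

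Of the 58 mitotic genes, 7 (12.1%) rose in A549 and fell in SUM159, near the 8.07% of all genes tested. These 7 were CENPI, CENPK, CENPM and CENPU of the inner kinetochore, the condensin subunit SMC2, TACC3 and KNSTRN. Their rises in A549 lay between 0.22 and 0.65. The count of this opposite class was 3 with DESeq2 and 4 without library 2 of treated A549.

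**Figure D3:**
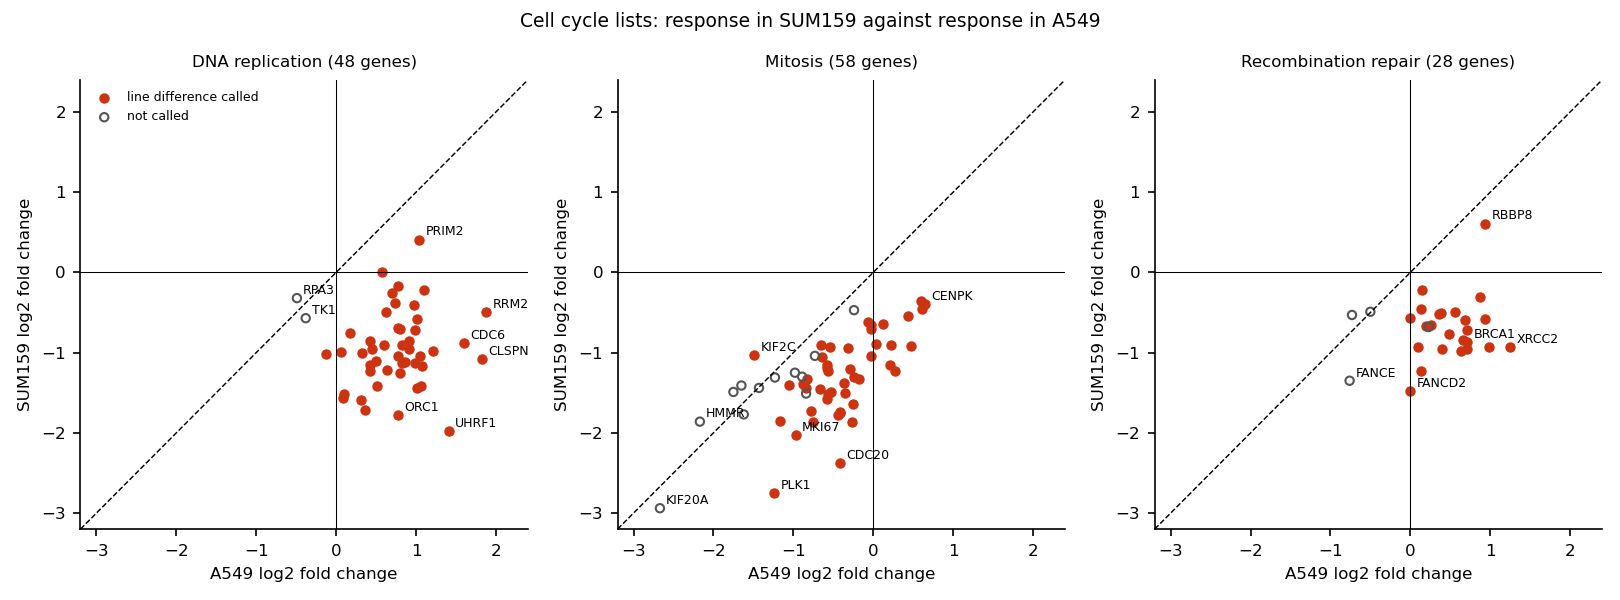
Log2 fold change in A549 (horizontal axis) and SUM159 (vertical axis) for the tested genes of DNA replication (48), mitosis (58) and recombination repair (28), filled where the line difference was called, with equal responses on the dashed line. Replication genes sit in the lower right quadrant, with 38 of 48 up in A549 and down in SUM159, and mitotic genes mostly in the lower left, with 41 of 58 down in both.

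The drug's targets and their partners differed as well. Of 35 tested genes of the CDK, cyclin and RB list, 17 rose and 10 fell in A549, 5 rose and 22 fell in SUM159, and the line difference was lower for 23 and higher for 5. CDK2 (chr12:55966781-55972789, plus strand) had 25.9 and 23.8 CPM in untreated and 52.5 and 50.6 CPM in treated A549. It had 103 and 102 CPM in untreated and 75.9 and 79.4 CPM in treated SUM159. CDK2 thus rose by 1.05 ± 0.08 in A549 and changed by -0.40 ± 0.07 in SUM159, a line difference of -1.45 ± 0.10 (edgeR adjusted p = 3.39e-08). CDK4 moved the same ways by less, 0.27 ± 0.06 and -0.38 ± 0.06. CDK6 rose by 0.83 ± 0.10 in A549 only, with -0.01 ± 0.09 in SUM159. These 3 kinases kept their class in all 15 settings.

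Among the D cyclins, CCND1 rose by 1.55 ± 0.07 in A549 and by 0.69 ± 0.06 in SUM159, and CCND3 rose by 0.89 ± 0.06 in A549 and gave 0.02 ± 0.06 in SUM159. CCND2 rose in both lines, from 0 counts to 1.45 and 1.3 CPM in A549 and from 0.543 and 1 to 11.3 and 10 CPM in SUM159, and its line difference was not called. CCNE1 and CCNE2, the E cyclins that partner CDK2, rose by 2.27 ± 0.10 and 2.79 ± 0.16 in A549. In SUM159 they gave 0.32 ± 0.10 and -0.11 ± 0.10, and the small rise of CCNE1 there lost its call without library 1 of untreated SUM159 and without library 2 of treated SUM159, which gave it to A549 only. CCNA2, cyclin A2, fell by 1.90 on the log2 scale in SUM159 (-1.90 ± 0.08) and changed by -0.33 ± 0.09 in A549, a fall that was not called there without library 2 of either A549 group. RB1 changed by 0.46 ± 0.09 and -0.31 ± 0.08, and E2F1 by 0.82 ± 0.09 and -0.40 ± 0.08, both of the opposite class in all 15 settings. CDC25A, the phosphatase that activates CDK2, changed by 1.49 ± 0.12 and -1.47 ± 0.08.

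Among the CDK inhibitors, CDKN1A (ENSG00000124762, chr6:36676460-36687337, plus strand), which encodes p21 and is a target of p53, rose in both lines. It had 39.2 and 43.7 CPM in untreated and 504 and 523 CPM in treated A549. It had 50.5 and 44.8 CPM in untreated and 97.4 and 94.6 CPM in treated SUM159. The untreated levels were close, and the rise was 3.63 ± 0.08 in A549 and 1.01 ± 0.08 in SUM159, a line difference of -2.62 ± 0.11 (edgeR adjusted p = 2.75e-10). CDKN1B (p27) and CDKN2C (p18) fell in both lines and further in A549, with -1.72 ± 0.09 and -2.31 ± 0.11 there and -0.39 ± 0.10 and -0.93 ± 0.10 in SUM159. CDKN2A and CDKN2B were not tested, since neither passed the filter on low counts.

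Genes that p53 activates rose in A549 almost throughout and in SUM159 in part. Of 48 tested, 43 rose and 3 fell in A549, and 29 rose and 8 fell in SUM159. Shared rises numbered 25 (11.4% of all genes tested were shared rises). Lower line differences numbered 25 and higher ones 12, against 27.2% and 25.6% of all genes tested. Rises in A549 only were found for 7 genes and opposite movement for 11, of which 8 rose in A549. The medians were 1.15 in A549 and 0.68 in SUM159, or 0.69 in SUM159 without 1 gene that held at most 3 counts in each of its groups.

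MDM2 (chr12:68808177-68845544, plus strand), the ubiquitin ligase of p53, had 119 and 135 CPM in untreated and 397 and 406 CPM in treated A549. In SUM159 it had 77.5 and 75.7 CPM without and 78.1 and 75.9 CPM with treatment. It rose by 1.66 ± 0.07 in A549 and gave 0.01 ± 0.07 in SUM159, a line difference of -1.65 ± 0.10 (edgeR adjusted p = 6.85e-09). FDXR (2.28 in A549 and -0.04 in SUM159), TP53I3 (1.42 and 0.13) and XPC (0.53 and 0.03) were of the same class. DDB2, POLH, AEN, PPM1D, TRIAP1, FBXO22, ASCC3 and BAX rose in A549 and fell in SUM159. BAX, an executor of apoptosis, gave 1.17 ± 0.08 and -0.54 ± 0.08.

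The other side of the list was led by TP53I11 and CD82, 2 membrane proteins. TP53I11 had 206 and 178 CPM in untreated and 127 and 135 CPM in treated A549, and 8.38 and 8.96 CPM in untreated and 140 and 137 CPM in treated SUM159. Its line difference was 4.55 ± 0.12 (edgeR adjusted p = 6.06e-12). Treated SUM159 thus reached the level of treated A549 from a low start. CD82 changed by -0.54 ± 0.09 and 3.87 ± 0.07. GDF15, a secreted stress factor of the TGF-beta family, rose in both lines, by 0.97 ± 0.10 in A549 and 5.04 ± 0.23 in SUM159.

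Chemokines and interleukins rose in more members and by more in SUM159. Of 37 listed, 31 were tested. Rises numbered 16 in A549 and 26 in SUM159, with 1 fall in each, and the line difference was higher for 14 and lower for 4, against 25.6% and 27.2% of all genes tested. The medians were 0.99 in A549 and 2.89 in SUM159. With genes at 0 in a group set to their bounds and 7 genes of A549 and 1 of SUM159 left out because both groups held at most 3 counts, they were 1.22 and 2.82. CXCL1 (chr4:73869393-73871308, plus strand), a ligand that attracts neutrophils, had 25.8 and 23.8 CPM in untreated and 47.3 and 44.3 CPM in treated A549. It had 1.57 and 2.13 CPM in untreated and 339 and 337 CPM in treated SUM159. The line that held less CXCL1 without treatment thus held more with it, and the line difference was 6.63 ± 0.15 (edgeR adjusted p = 1.55e-12).

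The CXCL1 promoter window, chr4:73869143-73869442, plus strand on GRCh38.p14, is shown because this gene had the largest line difference of the list among those with an entry in the table. Capitals again mark the 2 motifs.
CXCL1: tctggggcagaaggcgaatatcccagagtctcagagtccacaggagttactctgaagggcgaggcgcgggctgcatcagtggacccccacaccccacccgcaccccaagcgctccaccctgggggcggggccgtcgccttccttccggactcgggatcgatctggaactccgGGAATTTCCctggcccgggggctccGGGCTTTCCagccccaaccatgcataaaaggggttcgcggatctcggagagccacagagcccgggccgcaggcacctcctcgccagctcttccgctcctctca
It held 2 matches to the NF-kB-like letters GGNNTTTCC and none to the E2F-like letters. The NF-kB-like letters occurred in 11 of 27 promoters of the list (40.7%) and in 1710 of all 27305 promoters (6.26%). CX3CL1 and RPA3, which the same rule picked, are named only.

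CX3CL1, or fractalkine, had 0.544, 0.2, 0.0766 and 0.495 CPM in the 4 A549 libraries, untreated first. In SUM159 it had 0 and 1 counts without treatment and 17.7 and 18.8 CPM with it, a 596-fold ratio with a 95% counting interval of 107 to 2.36e+04. CCL2, which attracts monocytes, had 0 counts in both untreated SUM159 libraries and 8.07 and 8.75 CPM in the treated ones, at least 91.6-fold higher against a floor of 3 counts over the pair. In A549 CCL2 went from 0.612 and 0.867 to 15.1 and 14.8 CPM. CSF2, the growth factor GM-CSF, had at most 1 count per A549 library and rose in SUM159 from 0.543 and 0.376 to 43.0 and 44.3 CPM. The line difference of CSF2 was not called without library 2 of either A549 group. IL1B, interleukin 1 beta, rose by 1.30 ± 0.33 in A549 and 5.99 ± 0.20 in SUM159.

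Other members of the list rose steeply in both lines, CXCL8 and IL6 more in SUM159 and IL32 more in A549. CXCL8, interleukin 8, rose from 6.32 and 7.0 to 73.1 and 75.7 CPM in A549 and from 19.7 and 18.2 to 340 and 352 CPM in SUM159. The rises were 3.48 ± 0.09 and 4.19 ± 0.08. IL6 rose by 3.61 ± 0.26 and 4.95 ± 0.16, and its line difference, called at 1.34, lost its call in 3 of the 8 runs without a library (1.33 without library 1 and 1.36 without library 2 of untreated A549, 1.03 without library 2 of untreated SUM159). IL32 rose by 4.70 ± 0.34 in A549, from 0.068 and 0.267 to 4.98 and 4.2 CPM, and by 1.90 ± 0.08 in SUM159, from 35.9 and 36.9 to 134 and 138 CPM.

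NF-kB subunits and feedback genes, which lie upstream and downstream of many of these ligands, also rose in more members in SUM159, with 15 of 22 against 10 in A549. Of the 22, 15 had a higher and 4 a lower line difference, and the medians were 0.31 in A549 and 1.32 in SUM159. NFKBIA, the inhibitor that NF-kB induces, fell in A549 (-0.71) and rose in SUM159 (1.11). TRAF1, an adaptor of TNF receptors, had 2.79 and 2.13 CPM in untreated and 0.842 and 1.36 CPM in treated A549, and 16.8 and 15.5 CPM in untreated and 192 and 199 CPM in treated SUM159. Its line difference was 4.72 ± 0.28 (edgeR adjusted p = 6.85e-09). ICAM1, an adhesion molecule for leukocytes, rose by 4.05 ± 0.11 in SUM159 and gave 0.41 ± 0.19 in A549, a rise that was called without library 2 of untreated A549. RELA, which encodes the p65 subunit, gave 0.27 and 0.01.

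HLA class I genes and their peptide loading partners rose in all 17 tested members in SUM159. In A549, 9 rose and 3 fell, and the line difference was higher for 11 and lower for 3. The medians were 0.38 in A549 and 1.05 in SUM159. HLA-E had 140 and 137 CPM in untreated and 100 and 106 CPM in treated A549, and 127 and 122 CPM in untreated and 411 and 423 CPM in treated SUM159. Its line difference was 2.17 ± 0.09 (edgeR adjusted p = 2.52e-10). B2M, the light chain, rose by 1.37 in SUM159 only. TAP2, a peptide transporter subunit, was among the 3 with the lower response in SUM159, at 1.30 ± 0.13 in A549 and 0.35 ± 0.10 in SUM159, where its call was lost without library 1 of either SUM159 group. HLA genes share sequence, and reads that fit several of them may have been split between them.

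Interferon-stimulated genes rose in most members in each line, and their line differences were evenly split. Of 52 tested, 33 (63.5%) rose in each line, against 26.5% of all genes tested in A549 and 34.5% in SUM159. Of these, 22 rose in both. In A549 5 genes fell and in SUM159 7, and the line difference was higher for 19 and lower for 19. IFITM1, which blocks virus entry, fell by 1.75 on the log2 scale in A549 (-1.75 ± 0.30) and rose by 1.46 ± 0.12 in SUM159. IFI44 went the other way. It had 0.204 and 0.467 CPM in untreated and 2.14 and 2.78 CPM in treated A549, and 62.9 and 61.3 CPM in untreated and 38.5 and 32.8 CPM in treated SUM159. ISG15, a ubiquitin-like protein, rose by 3.02 ± 0.24 in A549 only, with 0.12 ± 0.11 in SUM159.

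Lysosomal genes rose across the list in SUM159. Of 63 tested genes for hydrolases, membrane proteins and the proton pump, 60 rose and 0 fell in SUM159, while 26 rose and 13 fell in A549. Of the line differences, 49 were called higher and 4 lower, against 25.6% and 27.2% of all genes tested. The medians were 0.14 in A549 and 1.13 in SUM159, and the mean of log2(CPM + 0.5) went from 5.94 and 5.89 to 6.09 and 6.11 in A549 and from 5.68 and 5.64 to 6.85 and 6.87 in SUM159. Of the 63 genes, 24 rose in both lines, 21 in SUM159 only, and 12 rose in SUM159 and fell in A549. This count of 12 fell to 7 with DESeq2 and to 5 without either library of treated A549.

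CTSS (chr1:150730079-150765957, minus strand), the protease cathepsin S, had 51.7 and 60.3 CPM in untreated and 74.9 and 70.4 CPM in treated A549. It had 2.53 and 1.69 CPM in untreated and 100 and 101 CPM in treated SUM159, and its line difference was 5.19 ± 0.17 (edgeR adjusted p = 3.45e-11). CTSO, another cathepsin, rose by 3.79 ± 0.12 in SUM159 only, with -0.19 ± 0.12 in A549. CTSB, CTSD and PSAP, which encode 2 cathepsins and the saposin precursor, rose in both lines, by 0.58, 0.43 and 0.59 in A549 and by 2.69, 1.83 and 2.05 in SUM159. NPC1, the cholesterol exporter of the lysosome, was an exception, at 1.44 ± 0.07 in A549 and 0.47 ± 0.06 in SUM159.

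**Figure D4:**
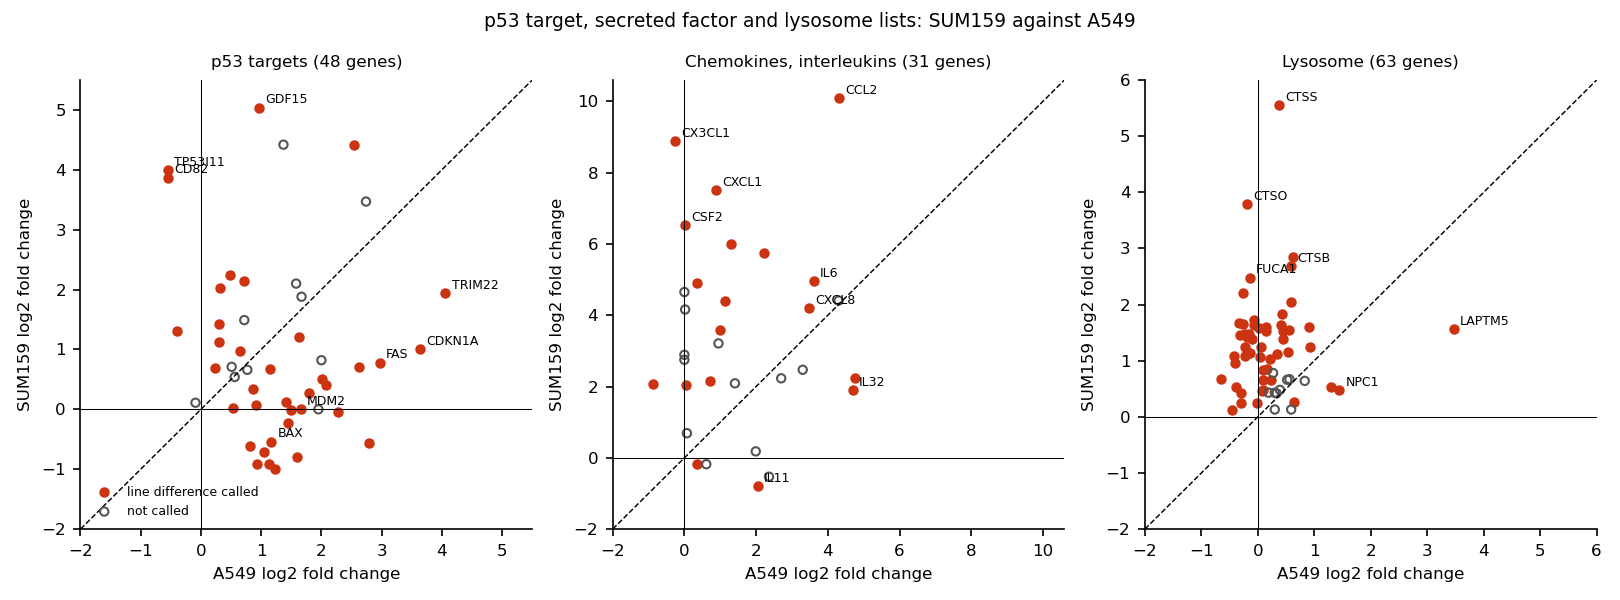
Log2 fold change in A549 (horizontal axis) and SUM159 (vertical axis) for the tested genes of the p53 target (48), chemokine and interleukin (31) and lysosome (63) lists, filled where the line difference was called, with equal responses on the dashed line. The p53 targets lie on both sides of the line, with 25 lower and 12 higher in SUM159, and 49 of 63 lysosomal genes lie above it with a call.

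Most matrix genes rose in each line. Of 41 collagens and other matrix genes, 26 rose and 4 fell in A549, 37 rose and 1 fell in SUM159, and 23 rose in both. The line difference was higher for 13 (31.7%) and lower for 10 (24.4%), near the 25.6% and 27.2% of all genes tested. All 8 fibroblast markers also rose in SUM159, and whether other cells took part was not tested. VCAN, the proteoglycan versican, had 1720 and 1620 CPM in untreated and 817 and 857 CPM in treated A549, and 60.4 and 79.9 CPM in untreated and 237 and 242 CPM in treated SUM159. It thus fell in the line that held more and rose in the line that held less. Of 23 matrix metalloproteinases and plasminogen system genes, 14 rose in A549 and 20 in SUM159. MMP13, a collagenase, had 1, 1, 0 and 0 counts in the 4 A549 libraries and rose in SUM159 from 2 and 0 counts to 13.7 and 11.9 CPM, a 207-fold ratio with a 95% counting interval of 56.9 to 1.71e+03.

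YAP and TEAD targets and mesenchymal genes rose more widely in A549. Of 27 tested YAP and TEAD targets, 21 rose and 1 fell in A549, 11 rose and 11 fell in SUM159, and the line difference was lower for 18 and higher for 3. ANKRD1, a muscle ankyrin repeat protein, rose by 4.06 ± 0.13 in A549 and 1.28 ± 0.06 in SUM159. AXL, a receptor tyrosine kinase, had 44.1 and 43.9 CPM in untreated and 108 and 110 CPM in treated A549, and 670 and 616 CPM in untreated and 338 and 349 CPM in treated SUM159. TEAD4, a DNA-binding partner of YAP, gave 0.89 ± 0.10 and -1.39 ± 0.10. Of 26 mesenchymal genes, 18 rose and 0 fell in A549, 15 rose and 6 fell in SUM159, and the line difference was lower for 14 and higher for 2.

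AP-1 is a dimer of FOS and JUN family proteins. JUN rose from 7.14 and 6.53 to 85.6 and 82.4 CPM in A549 and from 67.7 and 64.5 to 93.2 and 96.8 CPM in SUM159, so that treated A549 came near the level of SUM159. FOSL1 rose from 7.61 and 8.73 to 60.3 and 60.2 CPM in A549 and fell from 216 and 195 to 149 and 144 CPM in SUM159, a line difference of -3.37 ± 0.12 (edgeR adjusted p = 6.67e-11). FOS went the other way, from 3.67 and 3.73 to 2.07 and 1.61 CPM in A549 and from 1.69 and 1.57 to 3.62 and 4.54 CPM in SUM159, a line difference of 2.35 ± 0.33 (edgeR adjusted p = 3.31e-05). SPRY1, a feedback inhibitor of MAPK signalling, also fell in A549 and rose in SUM159, with a line difference of 2.04 ± 0.24, although its fall in A549 was not called with DESeq2 or without library 2 of treated A549. Over the MAPK feedback and AP-1 list of 32 genes, 12 rose and 12 fell in A549, and 18 rose and 7 fell in SUM159. Its line difference was higher for 13 (40.6%) and lower for 7 (21.9%), against 25.6% and 27.2% of all genes tested. A pair of keratins had the same directions as FOSL1. KRT80 changed by 3.20 ± 0.08 in A549 and -1.54 ± 0.07 in SUM159, and KRT7 by 1.40 ± 0.08 and -1.38 ± 0.08. Of 28 epithelial junction and keratin genes, the line difference was higher for 11 (39.3%) and lower for 8 (28.6%), the latter near the share of all genes.

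Genes of the ATF4 and unfolded protein response, which answer amino acid shortage and misfolded protein, fell in A549. Of 38 tested, 27 fell and 3 rose in A549, and 17 rose and 10 fell in SUM159. Its line differences were higher for 27 and lower for 5, and 12 genes fell in A549 and rose in SUM159. PHGDH, the entry enzyme of serine synthesis, had 319 and 289 CPM in untreated and 40.0 and 38.2 CPM in treated A549. It had 38.5 and 40.0 CPM in untreated and 56.3 and 57.1 CPM in treated SUM159, a line difference of 3.49 ± 0.10 (edgeR adjusted p = 1.34e-11). SLC7A5, a transporter of large amino acids, went the other way, from 503 and 456 to 97.5 and 98.0 CPM in SUM159. Its rise in A549, 0.25 ± 0.07, lost its call without library 2 of untreated A549 and without either library of treated A549.

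NRF2 targets, which detoxify reactive compounds, fell in 24 of 35 and rose in 9 in A549, and rose in 13 and fell in 13 in SUM159. ABCC3, an efflux pump, had 1670 and 1360 CPM in untreated and 713 and 709 CPM in treated A549, and 90.4 and 112 CPM in untreated and 357 and 357 CPM in treated SUM159. HMOX1, which breaks down haem, gave 1.39 ± 0.09 and -0.76 ± 0.07. Of 38 glycolysis and hypoxia genes, 24 rose and 5 fell in A549, and 13 rose and 13 fell in SUM159. Rises and falls in SUM159 were each 34.2% of the list, near the 34.5% and 30.6% of all genes tested. The line difference was lower for 23 and higher for 8. HK2, a hexokinase, rose in A549 from 0.612 and 0.6 to 3.9 and 4.33 CPM and fell in SUM159 from 110 and 109 to 63.1 and 66.9 CPM.

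The list with the most even response was that of the cytosolic ribosomal proteins. Of 79 tested, 70 fell in A549, 75 fell in SUM159, and 66 fell in both. The medians were -0.54 in A549 and -0.55 in SUM159. The line difference was called for 9 as higher and 13 as lower, below the 25.6% and 27.2% of all genes tested, although each of these counts rose to 23 without 1 library of untreated A549, the higher calls without library 1 and the lower calls without library 2. RPS26 was of the opposite class, at 0.54 ± 0.07 in A549 and -0.77 ± 0.07 in SUM159. Ribosomal protein genes have many near-identical copies in the genome, and their counts are uncertain where reads fit more than 1 copy.

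Lamins and senescence-associated chromatin genes fell in 8 of 18 in A549 and in 16 in SUM159. LMNB1, lamin B1, had 48.3 and 47.7 CPM in untreated and 36.9 and 32.9 CPM in treated A549, and 195 and 191 CPM in untreated and 42.7 and 40.0 CPM in treated SUM159. Both lines ended near the same level, and the line difference was -1.76 ± 0.11 (edgeR adjusted p = 7.22e-09). HMGB2, a chromatin protein, fell alike, at -1.95 ± 0.09 and -1.85 ± 0.07. Replication-dependent histones rose in 11 of 22 tested genes in A549 and in 20 in SUM159, with the line difference higher for 13 and lower for 0. Their medians were 0.70 and 2.72, and 0.90 and 2.72 with genes at 0 set to their bounds and 2 genes of A549 left out because both groups held at most 3 counts. H4C8, a histone H4 gene, rose from 4.35 and 4.07 to 13.3 and 12.9 CPM in A549 and from 0.543 and 0.752 to 16.8 and 18.1 CPM in SUM159. Histone messages of this kind normally lack a poly(A) tail, and the libraries were selected for poly(A), so these counts cover tailed transcripts.

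**Figure D5:**
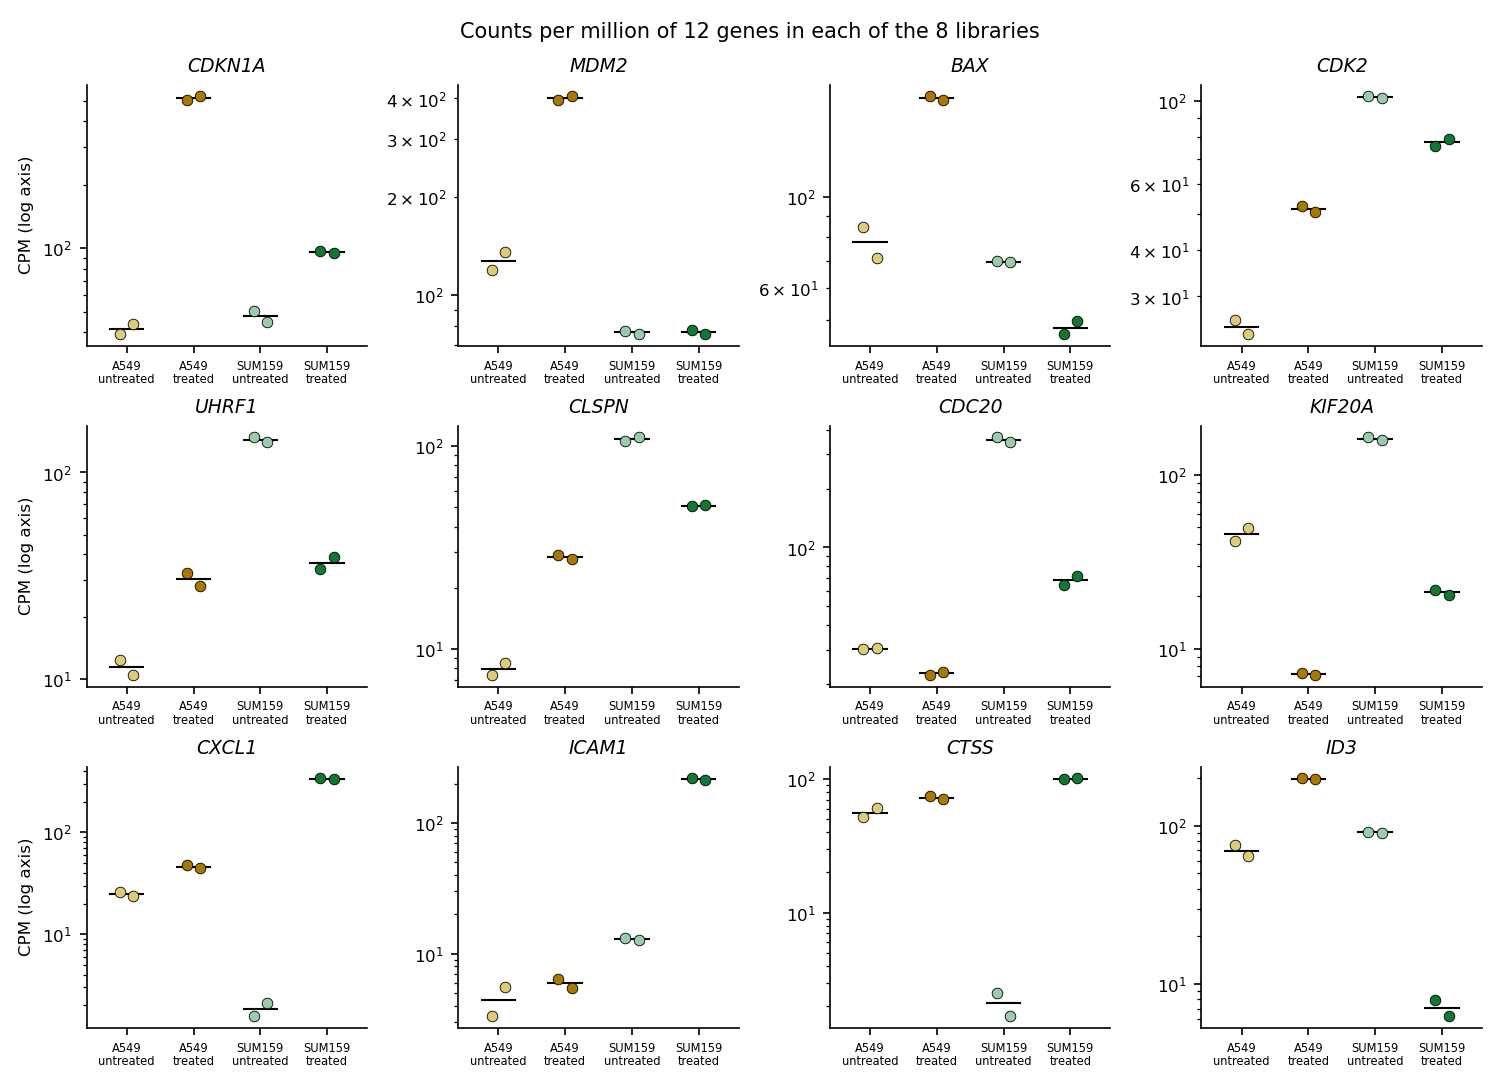
CPM on a logarithmic axis of 12 genes in each of the 8 libraries, with points for libraries and bars for the mean of 2. UHRF1 and CLSPN rose in A549 and fell in SUM159, KIF20A fell in both, and CXCL1, ICAM1 and CTSS were lower in untreated than in treated SUM159 in every library.

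The 5 senescence signatures used by the study were counted in the same way. They were Casella, Purcell, Hernandez senescence, Hernandez SASP (secreted factors) and Fridman. Of all genes tested, 26.5% rose in A549 and 34.5% in SUM159. Of the 41 tested genes of the Casella list, 23 rose and 5 fell in A549 (56.1% and 12.2%), 33 rose and 2 fell in SUM159 (80.5% and 4.88%), and the line difference was higher for 21 and lower for 7. For the 38 Purcell genes, 25 rose and 4 fell in A549, 30 rose and 3 fell in SUM159, and 16 line differences were higher and 9 lower. Of the 30 Hernandez senescence genes, 14 rose and 2 fell in A549, 22 rose and 0 fell in SUM159, and 14 line differences were higher and 5 lower. Among the 25 Hernandez SASP genes, 18 rose and 0 fell in A549, 20 rose and 2 fell in SUM159, and 10 line differences were higher and 5 lower. Among the 72 Fridman genes, 39 rose and 10 fell in A549 (54.2% and 13.9%), 39 rose and 15 fell in SUM159 (54.2% and 20.8%), and 24 line differences were higher and 24 lower.

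Among single genes of at least 10 CPM, the widest opposite responses include several that were near the limit of detection in a line. ID3 (chr1:23557926-23559501, minus strand), an inhibitor of helix-loop-helix factors, was well covered in both lines. It had 75.2 and 64.3 CPM in untreated and 199 and 197 CPM in treated A549. It had 91.4 and 90.0 CPM in untreated and 7.89 and 6.29 CPM in treated SUM159, so that lines with like levels without treatment were far apart with it. Its line difference was -5.19 ± 0.14 (edgeR adjusted p = 4.66e-12). P2RY2, a receptor for extracellular nucleotides, rose from 2.38 and 1.4 to 16.5 and 16 CPM in A549 and fell from 5.07 and 5.45 to 0.935 and 1.18 CPM in SUM159. HLA-DMB, a class II chaperone, fell from 118 and 126 to 3.98 and 4.02 CPM in A549. In SUM159 it rose from 0 and 2 counts to 20 and 16 counts, a 15.3-fold ratio with a 95% counting interval of 3.94 to 131.

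Genes of A549 only are ranked here among those of at least 10 CPM in a group and with a change under 0.5 on the log2 scale in SUM159. Rises were led by SPOCD1, CLMP, RUNX2 and ZNF365. RUNX2, the factor of bone formation, rose from 0.476 and 0.0667 to 4.36 and 3.71 CPM in A549, and had 36.6 and 38.0 CPM without and 34.0 and 35.2 CPM with treatment in SUM159. In these 4 genes the level of treated A549 lay below that of SUM159. For SPOCD1, RUNX2 and ZNF365 this follows from the limit of 10 CPM, which they passed only through SUM159. CLMP, an adhesion molecule, was instead of the opposite class without either library of untreated A549. Falls in A549 only were led by MUC5AC, a gel-forming mucin, which went from 3690 and 2580 to 312 and 326 CPM in A549 and had between 0.851 and 1.06 CPM in SUM159, and by ANG, CACFD1 and CD302.

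Genes of SUM159 only are likewise ranked among those of at least 10 CPM in a group and with a change under 0.5 in A549. By fitted fold change, rises were led by CX3CL1, RASEF, CSF2 and PLA1A, where RASEF and PLA1A hold their place through the fit's value for a group at 0. RASEF had 0 counts in both untreated and 1.64 and 0.567 CPM in treated SUM159 libraries, at least 11.3-fold higher, and between 33.2 and 40.1 CPM in A549. PLA1A, a phospholipase, also had 0 counts in untreated SUM159 and was at least 5.39-fold higher with treatment, and it was a shared rise with all 14 libraries in the model. Falls in SUM159 only were led by MAMDC4, GPAT3, WDR4 and CDCA7. GPAT3, an enzyme of triglyceride synthesis, went from 58.6 and 57.7 to 10.8 and 9.93 CPM in SUM159 and had 48.0 and 51.7 CPM without and 46.6 and 44.3 CPM with treatment in A549. CDCA7, a chromatin factor of DNA methylation, gave -1.97 ± 0.08 in SUM159 and 0.04 ± 0.08 in A549.

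By fitted fold change, shared rises without a called line difference were led by S100A9, EBI3, IL4I1 and TNFRSF9. S100A9 and IL4I1 had 0 counts in untreated A549, and there they are known only to be at least 5.76-fold and at least 3.05-fold higher with treatment, so their place rests on the fit. EBI3, a cytokine subunit, rose from 2 and 1 counts to 6.05 and 6.86 CPM in A549, a 64.4-fold ratio with a 95% counting interval of 21.7 to 315, and from 0.302 and 0.251 to 34.8 and 37.7 CPM in SUM159. TNFRSF9, the receptor 4-1BB, rose by 4.83 ± 0.37 and 5.35 ± 0.13. Its line difference was 0.51 ± 0.79 and changed sign, to -0.40, without library 2 of untreated A549. With few counts in untreated A549, the error given is only approximate, and a moderate line difference in these genes could have been missed. Shared falls without a called line difference included KIF20A, HMMR and HMGB2, all with well covered counts in both lines. HMMR, a spindle protein, gave -2.17 ± 0.10 and -1.86 ± 0.08, and its line difference of 0.32 ± 0.13 passed the threshold in 3 of the 14 alternatives, the filter of 50 counts, all 14 libraries in the model and without library 1 of untreated A549.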

How the data were processed

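Poly(A)-selected, stranded libraries were sequenced as single reads on an Illumina instrument, and the authors deposited the raw counts per gene of each library, aligned to hg38. The submitters' processing notes list HISAT2 2.2.1 and HTSeq. The annotation release and the strand setting of the counter are not given in the sources used here, so genes that overlap another gene on the other strand, which 78 of the 164 genes picked by the rule below do, may hold reads of both. The 9 summary lines per library were left out of totals, and 60370 of 60683 gene identifiers were named by GENCODE 44.

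Counts of 8 libraries were fitted in 1 model with edgeR 4.0.16 in R 4.3.3 (quasi-likelihood F test, total-count scaling, low counts filtered by filterByExpr, 16707 genes kept, Benjamini-Hochberg adjustment over all of them, threshold 0.05). The biological coefficient of variation was 0.0588 with 4 residual degrees of freedom. Tables and figures were made with Python 3.11.15, and the fit was tested on simulated data, in which a larger share of line difference calls was false than the threshold allows and not every changed gene was called. The line difference is a contrast of the same model. Fold changes against a group at 0 were set against 3 counts over its pair of libraries and given as at least that size, and ratios with 1 to 3 counts carry an exact 95% interval. Intervals and floors cover counting error only. Where reads fit near-identical genes (histones, HLA, ribosomal proteins), counts are uncertain.

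The members of the gene lists, the rule for named genes and the comparisons were chosen with earlier results of these data known. Named genes were protein-coding genes of at least 10 CPM in a group whose treated and untreated libraries did not overlap in a line that changed. They were the 5 highest and 5 lowest line differences of the opposite class, the 4 largest rises and 4 largest falls of A549 only and SUM159 only (a change of at least 1 on the log2 scale, under 0.5 in the other line) and of shared genes without a called line difference, a fixed set from the CDK pathway, p53 and secreted factors, and in each list the 2 highest and 2 lowest called line differences at any level. Some genes that the rule picks are not reported here. A few other list members are named as examples after their values were seen. Of 26 function lists and 5 published senescence signatures, 5 symbols were unmatched and 9 were matched by an older symbol.

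Alternatives were TMM scaling, DESeq2 1.42.0, no filter, a mean of at least 50 counts, all 14 libraries in the model, a replicate block within each line, leaving out each library in turn, and, added after the data were seen, counts over genes of at least 10 CPM. The labels do not say whether libraries of 1 replicate number were handled together, and the main fit did not pair them. In A549, treated and untreated libraries of 1 number deviated from their groups with a correlation of 0.0541, and in SUM159 of 0.0442. Between the libraries of a group, chi-square per degree of freedom was 9.57 for untreated A549, 1.61 for treated A549, 9.05 for untreated SUM159 and 2.29 for treated SUM159, so no library was counted as a copy of another. The other 6 libraries, of A549 under other treatments, were used only in the alternative with all 14.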

Additional observations from a re-analysis of the deposited data

Results flagged for a closer look

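The response to PF-06873600 was tested for a difference between the lines, and 8812 of 16707 genes passed. Of these, 9 of those with the widest line differences among genes of opposite direction and at least 10 CPM in a group are given as values.

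The 5 with the highest line difference fell in A549 and rose in SUM159 from 0 or few counts. They passed the limit of 10 CPM only through A549, so a clear level there follows from that limit. RAB37, a small GTPase of vesicles, had a fitted line difference of 9.63. It went from 55.2 and 57.3 to 6.28 and 5.44 CPM in A549 and from 0 counts to 0.701 and 0.567 CPM in SUM159, at least 6.81-fold higher there. HLA-DMB had 8.71, with the counts given above. DOC2B, a calcium sensor of exocytosis, had 8.39 and went from 17.3 and 16.1 to 0.995 and 1.05 CPM in A549 and from 0.0603 and 0.251 to 3.1 and 3.55 CPM in SUM159. MCF2L, a guanine nucleotide exchange factor, had 8.09, and KCNJ2, a potassium channel, had 7.74. Both had 0 counts in untreated SUM159 and rose there at least 8.22-fold and at least 7.37-fold. A fitted difference that rests on a group at 0 depends on the fit's prior count and is no bound.

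The 4 lowest line differences given here are of genes that rose in A549 and fell in SUM159. ACTL8, an actin-like protein, had -6.28, and P2RY2 had -5.39. DIO2, which activates thyroid hormone, had -5.95 and rose in A549 from 2 and 0 counts, a 24.4-fold ratio with a 95% counting interval of 6.4 to 207. This difference was -9.25 without library 1 of untreated A549, which leaves that group at 0, and -5.01 without library 2. In SUM159 it went from 212 and 216 to 78.3 and 74.3 CPM. ID3 had -5.19 and was the only gene of the 9 above 5 CPM in all 8 libraries.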

How the results depend on the processing

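The 14 class counts stayed within 1.5 times the reported value with TMM scaling, DESeq2, no filter, a mean of at least 50 counts, all 14 libraries and each library left out. Without each library in turn, rises in A549 numbered 3525 to 4553, falls 3184 to 4329, rises in SUM159 4966 to 6301, falls 4379 to 5522, higher line differences 3706 to 4399 and lower ones 3977 to 4815. Shared rises ranged from 1545 to 2027 and shared falls from 1134 to 1727, rises of A549 only from 579 to 808 and falls from 621 to 860, rises of SUM159 only from 1255 to 1670 and falls from 1421 to 1740, and opposite genes from 937 to 1361 (higher in SUM159) and from 1013 to 1477 (lower). A run without 1 library leaves an arm with 1 sample, which is assumed to vary like the other groups.

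The main fit did not treat replicate numbers as pairs. With a replicate block within each line, higher line differences numbered 4262 and lower ones 4593, shared genes 1918 and 1535, and opposite genes 1278 and 1359, and no class count moved by 1.5 times.

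Over the 8849 genes of at least 10 CPM, which are fewer by construction, rises numbered 2833 and falls 2657 in A549, rises 2647 and falls 4107 in SUM159, higher line differences 2371 and lower ones 3664, shared rises 1054 and shared falls 1324, A549 only 481 rises and 429 falls, SUM159 only 681 rises and 1311 falls, and opposite genes 744 higher and 1186 lower in SUM159. With a mean of at least 50 counts, the counts with the limit on size were 410 shared rises and 154 opposite genes higher in SUM159. Shared rises and falls of this size without a called difference were 202 and 28. With the main filter these counts were 711, 281, 451 and 53. Higher calls were 48.4% of the called line differences, 45.2% with TMM scaling, 51% with DESeq2 and 44.5% with a mean of at least 50 counts. The median line difference over all genes tested was 0.03, and it was 0.20 without a filter and -0.08 with a mean of at least 50 counts, which test other sets of genes. In every other setting it moved by less than 0.1.

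Of the list counts, 47 moved by over 1.5 times with another setting and 92 without a library, mostly counts of few genes, while 1069 and 1396 did not. Over 15 settings, 35 to 38 replication genes were opposite, 36 to 42 mitotic and 60 to 68 ribosomal protein genes fell in both lines, and 46 to 51 lysosomal genes had a higher line difference. TNFRSF9, whose line difference was not called, gave between -0.40 and 1.06 without each library, a change of sign. The cause was not tested.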

Other observations

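Lists not described above were counted in the same way. Of all genes tested, 26.5% rose and 25.6% fell in A549, and 34.5% rose and 30.6% fell in SUM159. Cholesterol and fatty acid synthesis fell in 18 of 34 genes in A549 and in 20 in SUM159, with 8 falling in both, and the line difference was higher for 8 and lower for 12. FASN, fatty acid synthase, had 157 and 101 CPM in untreated and 235 and 252 CPM in treated A549, and 744 and 892 CPM in untreated and 384 and 423 CPM in treated SUM159. Of 26 TGF-beta and IGF binding secreted factors, 18 rose and 4 fell in A549, 15 rose and 3 fell in SUM159, and 12 rose in both. The line difference was higher for 7 (26.9%) and lower for 8 (30.8%), near the 25.6% and 27.2% of all genes tested. INHBE, an inhibin subunit, went from 27 and 34 to 1 and 1 counts in A549 and from 8 and 7 to 40 and 47 counts in SUM159. TGFB2, a ligand of that family, rose by 2.36 in A549 and 1.14 in SUM159. FSTL3, an activin antagonist, gave 1.83 and -0.70.

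Nuclear genes of the respiratory chain fell in 24 of 64 in A549 and in 29 in SUM159, with 7 falling in both, and the line difference was higher for 19 (29.7%) and lower for 17 (26.6%), near the 25.6% and 27.2% of all genes tested. Regulators of the BCL2 family rose in 9 of 14 in A549 and 8 in SUM159. BMF, which promotes apoptosis, gave -2.02 in A549 and 1.60 in SUM159. Among the stress factors, CHAC1, which degrades glutathione, gave -1.67 and 1.10. ARRDC4, an arrestin family member that answers glucose, gave -0.88 and 3.48.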
